A study of Homo sapiens with 6 samples.

Results

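Messenger RNA levels of 9 enzymes that make asparagine, proline, alanine, aspartate, glutamate and glutamine, or that join these pathways to oxaloacetate, were examined after CRISPR targeting of METTL1 in Mono-Mac-6 cells. The 9 genes are ASNS, PCK2, PC, GPT2, GOT1, GOT2, PYCR1, ALDH18A1 and GLUL, taken by symbol from a table of 18806 gene symbols, and each of the 9 had a row there. Mono-Mac-6 is an established line from a human acute monocytic leukaemia, and it carries the MLL-AF9 fusion gene. All groups came from 1 Cas9-expressing clone, transduced by lentivirus, selected with blasticidin at 10 µg/ml and hygromycin B at 200 µg/ml, and harvested about 8 to 10 days after transduction. The groups differed in the guide RNA: sgMETTL1.3 and sgMETTL1.6 target METTL1, and sgNS is the control guide. There were 2 poly(A) RNA sequencing libraries for each guide and 6 in all, so 4 libraries with a METTL1 guide stand against 2 control libraries. Every culture received the same RPMI medium with 10% serum, 2 mM glutamine, non-essential amino acids, 1 mM pyruvate and 10 µg/ml insulin. Use of 1 clone limits the model. Whether replicates were separate cultures is not labelled, so p-values reflect library-to-library spread alone, and that spread may be technical.

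METTL1 carries the catalytic site of the methyltransferase that forms N7-methylguanosine in transfer RNAs. The enzymes examined here exchange nitrogen and carbon around glutamate. Asparagine synthetase (ASNS) moves the amide nitrogen of glutamine onto aspartate, aminotransferases (GPT2, GOT1, GOT2) move the amino group of glutamate onto pyruvate or oxaloacetate, and proline is built from glutamate by ALDH18A1 and then PYCR1. ASNS is a textbook target of ATF4, the transcription factor of the amino acid response, which acts when amino acids run short or when the stress kinases that phosphorylate eIF2 are active. Asparagine supply is of clinical interest in leukaemia, because asparaginase treatment removes it from the blood.

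The values are TPM, each gene's estimated share of the transcripts after correction for transcript length, with every library brought to an equal total. Read depth cannot be recovered from TPM, and counting intervals are therefore not given. Replicates differed by a median of 2.44% with sgMETTL1.3, 3.15% with sgMETTL1.6 and 2.42% with sgNS over the 1742 genes at 100 TPM or more. The targeted gene does not bear out one of the labels at the mRNA level: METTL1 was at 18.29 and 16.56 TPM under the label sgMETTL1.3 and at 11.15 and 11.69 TPM under sgMETTL1.6, against 15.38 and 13.89 TPM under sgNS. Gene-level TPM does not read the small insertions and deletions that Cas9 leaves, so METTL1 mRNA checks neither the cut nor the protein. Directions below are those of the libraries as labelled. Over both guides METTL1 had a log2 difference of -0.05 (limma, adjusted p = 0.53), a mean of opposite changes. Taken singly, it was called higher by 0.24 with sgMETTL1.3 (limma, adjusted p = 0.0111). With sgMETTL1.6 it was called lower, with a log2 change of -0.33 (limma, adjusted p = 0.00167). Of 10 myeloid markers, 8 were tested over both guides (limma, adjusted p under 0.05), with 2 higher and 5 lower (3 and 4 with quantile scaling), beside 32.6% and 26.8% of all tested genes. ITGAM (-0.64), PTPRC (-0.52), MPO (-0.47), CD68 (-0.37) and LYZ (-0.14, a sign that turned with quantile scaling) were the lower ones by log2 change, and SPI1 (0.20) and FUT4 (0.20) the higher ones. Taken by guide, SPI1 was called with sgMETTL1.3 alone and LYZ with sgMETTL1.6 alone. The part of these shifts in the results was not tested. CD14 and CSF1R stayed under 1 TPM in every library, while LYZ, the lysozyme of monocytes and granulocytes, averaged 10786 TPM with sgMETTL1.3, 9413 TPM with sgMETTL1.6 and 11129 TPM with sgNS. Of 11 markers of other cell types, CD3E, CD3D, MS4A1 and HBB were among those listed at 0 in every library. In the same list 3 were tested, with 2 called higher and 1 lower over both guides. HBA1 was higher by a log2 change of 1.05 at no more than 2.67 TPM. PECAM1 was higher by 0.20, called with sgMETTL1.3 alone, and KRT18 was lower by 0.38. The 11 summed to 114 to 115 TPM with sgMETTL1.3, 83.7 to 86.7 TPM with sgMETTL1.6 and 89.0 to 91.0 TPM with sgNS, most of it PECAM1, which monocytes also express.

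The main comparison set the 4 libraries with a METTL1 guide against the 2 sgNS libraries. ASNS, PCK2, GPT2, GOT1 and PYCR1 fell, the first 3 by more than 80%. PC, GOT2 and ALDH18A1 rose by 15.6% to 24.3%, and GLUL did not pass the test. Thus the set held both directions, 3 genes higher, 5 lower and 1 not called (limma on log2(TPM + 1), Benjamini-Hochberg adjusted p under 0.05 over the 10911 genes that averaged 1 TPM or more). Over all tested genes, 32.6% were called higher and 26.8% lower, so being called in either direction was common here and the size of the change tells more. A log2 change of -1 or lower was reached by 4 of the 9 enzymes and by 1.33% of tested genes. One of -2 or lower was reached by 3 of the 9 and by 0.257%. The median log2 change of the 9 was -0.73, against 0.02 over all tested genes. Because the 9 were chosen with earlier results of these data known, these contrasts describe the set and are no independent evidence. Such values are from whole cultures, in which fewer cells of a type and less RNA per cell cannot be told apart.

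**Figure D1:**
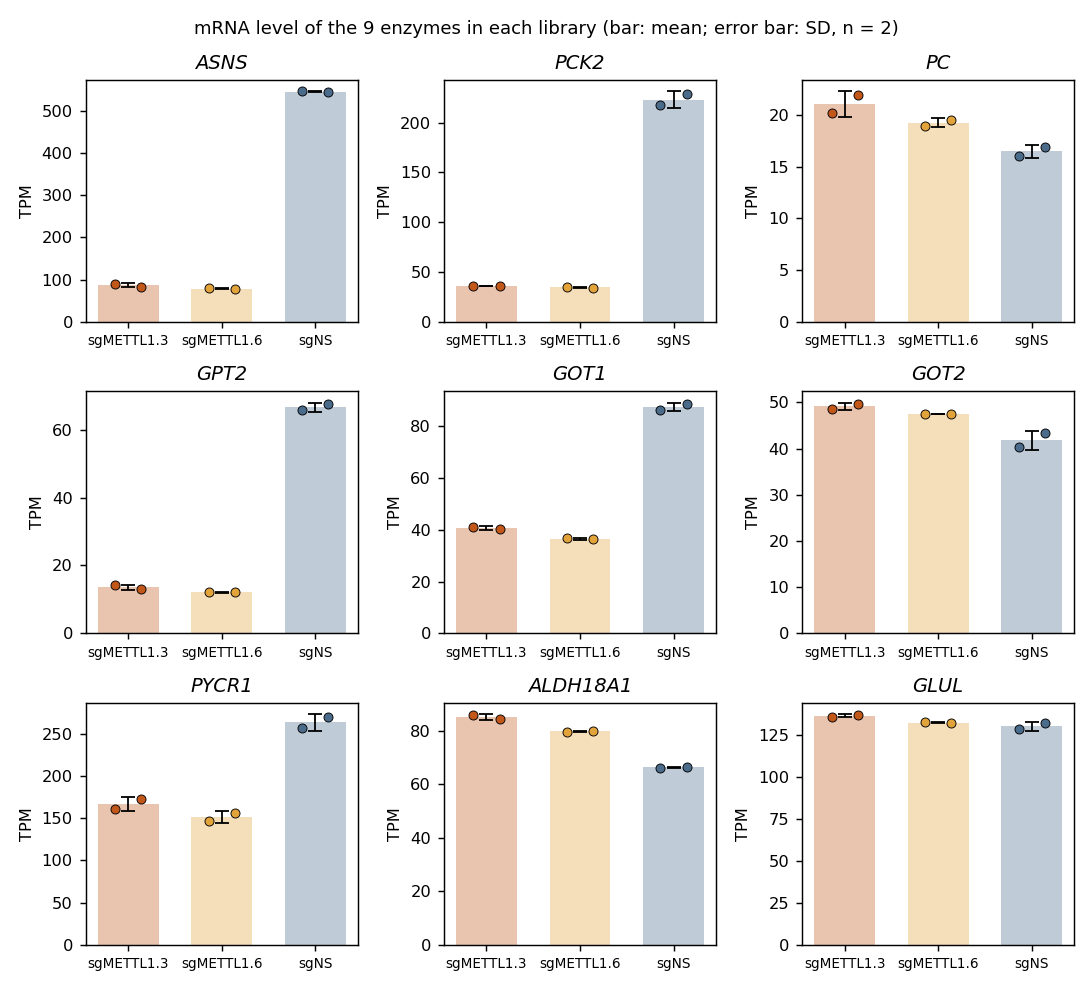
TPM of each of the 9 enzymes (one panel each, vertical axis from 0) in the libraries of sgMETTL1.3, sgMETTL1.6 and sgNS. Points are libraries, bars are means of 2 and error bars are SD. The 4 guide libraries lie far below both controls for ASNS, PCK2, GPT2 and GOT1, and also below both for PYCR1. They lie above both for PC, GOT2, ALDH18A1 and, by the smallest margin, GLUL.

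ASNS makes asparagine from aspartate and glutamine. It had 89.53 and 83.09 TPM in the libraries labelled sgMETTL1.3 and 79.57 and 77.50 TPM in those labelled sgMETTL1.6, against 546.68 and 544.67 TPM in sgNS libraries. All 4 guide libraries lay far below both controls, and the replicates of a group differed by less than 7 TPM. The log2 change over both guides was -2.71 ± 0.0352 (SE, 95% interval -2.79 to -2.64; limma, adjusted p = 9.16e-15). On the TPM scale it fell by 84.9%, with sgNS 6.62-fold above the guides. Counted from the lowest log2 change of the 10911 tested genes, ASNS was number 8. The gene, ENSG00000070669.16, lies on the minus strand of chromosome 7 from 97852118 to 97872542 (GENCODE 29, GRCh38). It shares 1985 exon bases with AC079781.5 on the same strand, which had no row in the table used.

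The first 250 bases upstream of each start and the 50 after it were read from a table of RefSeq promoters (GRCh38.p14), in which 7 of the 9 genes were matched, with 11 windows between them. GPT2 and PYCR1 were not matched in the table used. Both motifs known from the amino acid response at ASNS, and the E-box, were searched in these windows on both strands as a description. TGATGNAA, the core of the composite element that ATF4 binds with C/EBP partners, occurred in 3.62% of 35116 windows. GTTACA, an element described at the ASNS promoter beside it, occurred in 6.66%. CACGTG, the E-box bound by MYC and related factors, occurred in 7.26%. Windows of ASNS, GOT1 and ALDH18A1 held a match, and the stretches around them are shown because they set the most lowered enzyme beside a less lowered one and one that rose. Distances are from the RefSeq start of that window, and other transcripts of a gene can start elsewhere. The ASNS stretch lies within the GENCODE gene, where 4 of 17 transcripts have an exon, and so does that of GOT1, with 1 of 3 transcripts. Capitals mark the motifs.
ASNS, chr7:97872449-97872478, minus strand, 70 to 41 bases before the start: caTGATGAAActtcccgcacgcGTTACAgg
GOT1, chr10:99430804-99430833, minus strand, motif 198 to 191 bases before the start: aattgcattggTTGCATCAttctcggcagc
ALDH18A1, chr10:95656830-95656859, minus strand, motif 136 to 131 bases before the start: gggctggcccgcCACGTGgagcgctggctt
At ASNS the TGATGNAA match and the GTTACA match stood 12 bases apart on the strand of the gene, and no other window of the 11 held GTTACA. ASNS had 2 windows, and the other one held none of the 3 motifs. The GOT1 match to TGATGNAA is on the opposite strand, where it reads as the reverse complement of the capitals. PCK2, whose mRNA fell nearly as far as that of ASNS, held none of the 3 motifs in its 300-base window, which says nothing on sites elsewhere. A match is a string of letters and not a measured binding site.

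PCK2 turns mitochondrial oxaloacetate into phosphoenolpyruvate, and PC makes mitochondrial oxaloacetate from pyruvate. These enzymes, which draw on and refill the same pool, went opposite ways. PCK2 had 35.66 and 35.62 TPM with sgMETTL1.3 and 35.07 and 33.95 TPM with sgMETTL1.6, against 217.45 and 229.24 TPM with sgNS. Its guide libraries spanned less than 2 TPM and lay well under the controls. The log2 change was -2.64 ± 0.038 (SE, 95% interval -2.72 to -2.55; limma, adjusted p = 1.77e-14), and its TPM fell by 84.3%. PCK2 was number 9 in the same order of all tested genes. It lies on the plus strand of chromosome 14, 24094053 to 24110598, and overlaps NRL on the opposite strand without shared exon bases.

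PC had 20.16 and 21.92 TPM with sgMETTL1.3 and 18.97 and 19.55 TPM with sgMETTL1.6, against 16.04 and 16.91 TPM with sgNS. Every guide library was above both controls, though by only a few TPM. The log2 change was 0.27 ± 0.0527 (SE, 95% interval 0.16 to 0.39; limma, adjusted p = 0.000595), a rise of 22.3%. PC lies on the minus strand of chromosome 11, 66848233 to 66958376, and shares 621 exon bases with LRFN4 on the opposite strand. LRFN4 averaged 52.8 TPM in sgMETTL1.3 libraries and 47.3 TPM in sgMETTL1.6 libraries, against 29.3 TPM with sgNS, so it moved the same way as PC. Libraries were made with a stranded kit, but the sources used here do not give whether counting used strand. The part of LRFN4 reads in the PC values was not tested. PCK1, the cytosolic form of the PCK2 enzyme, was listed at 0 in all 6 libraries.

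GPT2, GOT1 and GOT2 are aminotransferases that pair glutamate with 2-oxoglutarate. GPT2, the mitochondrial alanine aminotransferase, had 14.10 and 13.07 TPM with sgMETTL1.3 and 12.18 and 12.04 TPM with sgMETTL1.6, against 65.77 and 67.60 TPM with sgNS. It was the lowest of the 9 enzymes in every guide library, while in sgNS libraries it stood above PC and GOT2. The log2 change was -2.29 ± 0.0485 (SE, 95% interval -2.40 to -2.19; limma, adjusted p = 4.98e-13), and TPM fell by 80.7%. On the log2(TPM + 1) scale such a change is slightly understated for a gene at this level. GPT, the cytosolic form, averaged under 1 TPM and was not tested. GPT2 lies on the plus strand of chromosome 16, 46884378 to 46931297.

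The aspartate aminotransferases are enzymes of the malate-aspartate shuttle, by which reducing equivalents cross the mitochondrial membrane. GOT1 works in the cytosol and GOT2 in mitochondria. GOT1 had 41.10 and 40.21 TPM with sgMETTL1.3 and 36.66 and 36.30 TPM with sgMETTL1.6, against 86.35 and 88.61 TPM with sgNS. GOT2 had 48.58 and 49.68 TPM with sgMETTL1.3 and 47.51 and 47.45 TPM with sgMETTL1.6, against 40.30 and 43.28 TPM with sgNS. The cytosolic enzyme was thus lower, and the mitochondrial one higher, in each guide library than in either control. GOT1 fell by 1.16 on the log2 scale (SE 0.0379, 95% interval -1.25 to -1.08; limma, adjusted p = 3.68e-11), and its TPM fell by 55.9%. GOT2 rose by 0.21 (SE 0.0418, 95% interval 0.11 to 0.30; limma, adjusted p = 0.00091), or 15.6%. GOT1 lies on the minus strand of chromosome 10, 99396870 to 99431569, and GOT2 on the minus strand of chromosome 16, 58707131 to 58734357. On the opposite strand GOT1 shares 651 exon bases with AL391684.1 and GOT2 shares 162 with AC092378.1. Neither of these overlapping genes had a row in the table used. GENCODE 29 names 4 pseudogenes each for ASNS, GOT2 and GLUL, and none of them had a row in the table used, so reads shared with them are uncertain.

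Proline is made from glutamate in mitochondria by ALDH18A1, which forms the semialdehyde that cyclises to pyrroline-5-carboxylate, and then by reductases of pyrroline-5-carboxylate, among them PYCR1. ALDH18A1, of the first step, rose and PYCR1, of the last, fell. ALDH18A1 had 85.85 and 84.34 TPM with sgMETTL1.3 and 79.63 and 79.99 TPM with sgMETTL1.6, against 66.28 and 66.44 TPM with sgNS. PYCR1 had 161.07 and 172.86 TPM with sgMETTL1.3 and 146.42 and 156.33 TPM with sgMETTL1.6, against 256.87 and 270.44 TPM with sgNS. In neither gene did guide and control libraries overlap. The log2 change of ALDH18A1 was 0.31 ± 0.0341 (SE, 95% interval 0.23 to 0.38; limma, adjusted p = 5.59e-06), a rise of 24.3%. That of PYCR1 was -0.73 ± 0.0391 (SE, 95% interval -0.81 to -0.64; limma, adjusted p = 6.38e-09), and its TPM fell by 39.6%. ALDH18A1 lies on the minus strand of chromosome 10, 95605929 to 95656706. PYCR1 lies on the minus strand of chromosome 17, 81932384 to 81942412, and shares 408 exon bases with MYADML2 on the same strand, which averaged 0.535 TPM with sgMETTL1.3, 0.285 TPM with sgMETTL1.6 and 0.335 TPM with sgNS. PYCR1 also shares 450 exon bases with AC145207.4 on the opposite strand, which had no row in the table used.

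GLUL, glutamine synthetase, joins ammonia to glutamate and runs against the use of glutamine by ASNS. It had 136.26 and 137.32 TPM with sgMETTL1.3 and 132.78 and 132.37 TPM with sgMETTL1.6, against 128.55 and 132.16 TPM with sgNS. Guide libraries were above both controls, but the nearest pair, 132.37 TPM with sgMETTL1.6 and 132.16 TPM with sgNS, nearly touched. The log2 difference of 0.05 did not pass the test (95% interval -0.02 to 0.11; limma, adjusted p = 0.215). GLUL lies on the minus strand of chromosome 1, 182381704 to 182392206. Counting GLUL, the 4 guide libraries lay above both controls for 4 enzymes and below both for 5, which was so for 32.9% and 27.3% of tested genes.

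Each guide was then set against the control libraries. With sgMETTL1.3, the 9 enzymes again gave 3 higher, 5 lower and 1 not called, beside 34.3% of tested genes higher and 24.2% lower. With sgMETTL1.6 the count was also 3 higher, 5 lower and 1 not called, beside 25.7% higher and 25.3% lower. The same 3 and the same 5 genes were called as over both guides. These comparisons share the sgNS libraries, so likeness between them is not independent evidence. ASNS had a log2 change of -2.65 with sgMETTL1.3 and -2.78 with sgMETTL1.6. PCK2 had -2.61 with sgMETTL1.3 and -2.66 with sgMETTL1.6, and GPT2 had -2.22 and -2.37 in the same order. GOT1 changed by -1.09 with sgMETTL1.3 and -1.24 with sgMETTL1.6, and PYCR1 by -0.66 and -0.80. ALDH18A1 was higher by 0.35 with sgMETTL1.3 and 0.26 with sgMETTL1.6. PC was higher by 0.33 with sgMETTL1.3 (limma, adjusted p = 0.000401) and by 0.21 with sgMETTL1.6 (limma, adjusted p = 0.0103). GOT2 was higher by 0.23 with sgMETTL1.3 (limma, adjusted p = 0.0012) and by 0.18 with sgMETTL1.6 (limma, adjusted p = 0.00708). The last 2 rises with sgMETTL1.6 rested on sgNS replicate 1: without it PC had a log2 change of 0.18 (limma, adjusted p = 0.0846) and GOT2 one of 0.13 (limma, adjusted p = 0.0955).

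**Figure D2:**
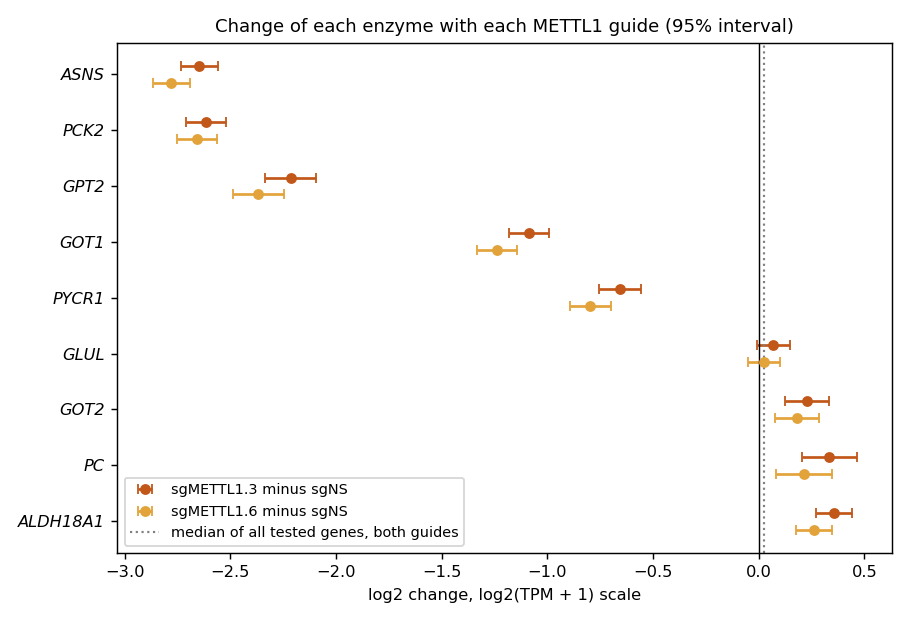
Log2 change of each enzyme with sgMETTL1.3 and with sgMETTL1.6 against sgNS on the log2(TPM + 1) scale, with 95% intervals from limma. ASNS, PCK2 and GPT2 lie left of -2 with both guides, GOT1 left of -1, and the rises of ALDH18A1, PC and GOT2 stay under 0.4; the dotted line is the median of all tested genes over both guides (0.02), which was 0.04 with sgMETTL1.3 and 0.0006 with sgMETTL1.6.

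Set against each other, all 9 enzymes had a lower mean with sgMETTL1.6 than with sgMETTL1.3, by log2 differences of -0.04 to -0.15. The median of all tested genes was negative too, at -0.05, so a lower mean was common. That median was -0.0083 with quantile scaling, -0.0077 with median-ratio scaling and -0.0208 after rescaling without ribosomal protein genes. ASNS (-0.13; limma, adjusted p = 0.0328), GOT1 (-0.15; limma, adjusted p = 0.0258) and PYCR1 (-0.14; limma, adjusted p = 0.0405) passed the test as lower with sgMETTL1.6. None of the 9 was called higher. PCK2 differed by -0.05 with a 95% interval of -0.14 to 0.05. Between the guides, 7.23% of tested genes (789) were called higher and 15.8% (1721) lower, and the median over all of them was -0.05. That balance depended on scaling: it was 972 higher and 803 lower with quantile scaling, 1102 and 809 with median-ratio scaling, and 931 and 967 after rescaling without ribosomal protein genes. None of the 3 enzyme calls held with any of these scalings, and GLUL differed by 0.0006 with median-ratio scaling. At most 2 of the 3 held when 1 library was left out, with 2 called without sgNS replicate 1 and 1 called without any of the other libraries in turn. The adjusted p from limma then ran up to 0.266 for ASNS (without sgMETTL1.3 replicate 1), 0.134 for GOT1 (without sgMETTL1.3 replicate 1) and 0.271 for PYCR1 (without sgMETTL1.3 replicate 2).

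In the control libraries ASNS was the most abundant of the 9 transcripts, followed by PYCR1, PCK2, GLUL and GOT1. In the guide libraries PYCR1 led, followed by GLUL. ASNS there stood beside ALDH18A1, with ranges that overlapped with sgMETTL1.3 and 0.06 TPM between the nearest libraries with sgMETTL1.6. PCK2 dropped to below GOT2 and GOT1 in all guide libraries. The 9 levels summed to 632.31 and 638.11 TPM with sgMETTL1.3 and 588.79 and 595.48 TPM with sgMETTL1.6, against 1424.29 and 1459.35 TPM with sgNS. ASNS made up 13.0% to 14.2% of that sum with the guides, against 37.3% to 38.4% with sgNS. GLUL, whose own level did not pass the test, made up 21.5% to 22.6% with the guides, against 9.03% to 9.06% with sgNS.

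**Figure D3:**
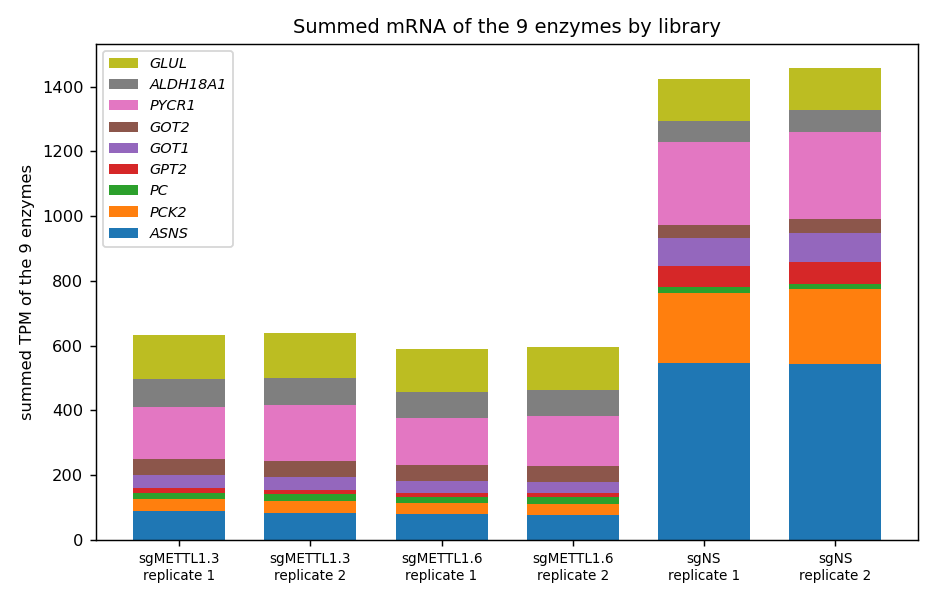
Summed TPM of the 9 enzymes in each of the 6 libraries, stacked by enzyme, with sgMETTL1.3 and sgMETTL1.6 left of sgNS. The guide libraries reach 588.79 to 638.11 TPM and the control libraries 1424.29 to 1459.35 TPM, and the ASNS and PCK2 segments shrink most.

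Ratios of enzymes within a library do not depend on how that library was scaled, and 5 pairs were compared, of which 4 are given. GOT1 to GOT2, the cytosolic to the mitochondrial enzyme, stood at 0.846 and 0.809 with sgMETTL1.3 and 0.772 and 0.765 with sgMETTL1.6, against 2.14 and 2.05 with sgNS. The order of the pair was therefore turned round, with GOT2 the more abundant transcript in guide libraries and GOT1 in controls. PCK2 to PC stood at 1.77 and 1.62 with sgMETTL1.3 and 1.85 and 1.74 with sgMETTL1.6, against 13.6 in both sgNS libraries. ASNS to GLUL, the user of glutamine to its maker, stood at 0.657 and 0.605 with sgMETTL1.3 and 0.599 and 0.585 with sgMETTL1.6, against 4.25 and 4.12 with sgNS. ALDH18A1 to PYCR1 stood at 0.533 and 0.488 with sgMETTL1.3 and 0.544 and 0.512 with sgMETTL1.6, against 0.258 and 0.246 with sgNS. For each of these 4 pairs the groups did not overlap, and the exact two-sided permutation test of 4 guide against 2 control libraries gave p = 0.133 (0.133 adjusted over the 5 pairs), the smallest that its 15 arrangements allow. A design of this size cannot pass a threshold of 0.05 in that test.

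**Figure D4:**
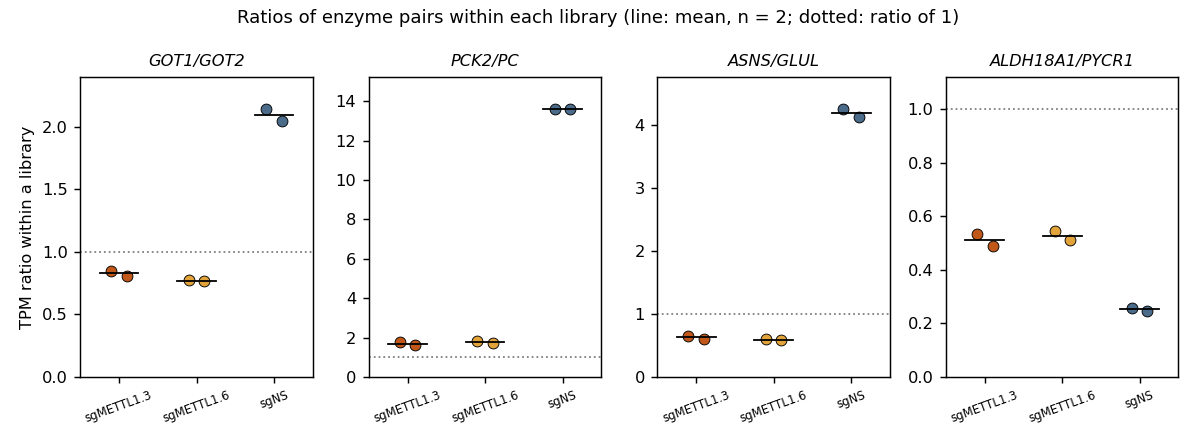
TPM ratio of 4 enzyme pairs within each library, by guide, with lines at the mean of 2 libraries and a dotted line at a ratio of 1. GOT1/GOT2 and ASNS/GLUL lie below 1 in guide libraries and above 1 in sgNS libraries, and ALDH18A1/PYCR1 is the pair whose ratio is higher with the guides.

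Genes with a profile most like that of ASNS were sought by the Euclidean distance between log2(TPM + 1) profiles over the 6 libraries, each centred on its mean. Nearest to ASNS were PSAT1 (distance 0.0825), an aminotransferase of serine synthesis, then PCK2 (0.157), ALDH1L2 (0.219), INHBE (0.298) and CTH (0.342). For PCK2 the nearest were ASNS (0.157), PSAT1 (0.178), INHBE (0.334), ALDH1L2 (0.335) and PHGDH (0.37), the first enzyme of serine synthesis. All share the low guide libraries and high control libraries, so the distances mostly rank the size of the fall. By the same measure GPT2 stood 0.42 from PCK2, and GOT1 stood 0.519 from PYCR1. PC stood 0.124 from ALDH18A1 and 0.128 from GOT2, and GLUL, which was not called, stood 0.188 from GOT2. ATF4 mRNA itself had 418.33 and 411.41 TPM with sgMETTL1.3 and 389.85 and 401.42 TPM with sgMETTL1.6, against 604.44 and 608.25 TPM with sgNS. It fell by 0.58 on the log2 scale (limma, adjusted p = 9.49e-10), and mRNA does not read its protein. In a list of ATF4 and known targets, 7 of 7 were called lower with a median of -2.34, beside 26.8% of all tested genes lower. PSAT1 and PHGDH, named above for their profiles, are on that list, which was chosen with earlier results of these data known and is no independent evidence.

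Genes that use or carry the same metabolites were taken from 6 lists, with 78 genes in the table and 62 tested. Of these, 24 rose, 17 fell and 21 did not pass, and the median log2 change was 0.04, close to the 0.02 of all tested genes. No gene of the 6 lists reached a log2 change of 1, and 5 reached -1 or lower: ASS1, BCAT1, PSAT1, SLC38A1 and SLC38A2. Over all tested genes, 32.6% were called higher and 26.8% lower, and the counts of each list stand beside these shares.

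In the list on asparagine and aspartate use, 3 of 11 tested genes were higher and 5 lower, with a median of -0.08. ASS1, which joins aspartate to citrulline, had 153.34 and 150.26 TPM with sgMETTL1.3 and 140.37 and 148.38 TPM with sgMETTL1.6, against 478.67 and 475.71 TPM with sgNS. It fell by 1.68 on the log2 scale (limma, adjusted p = 1.24e-13). NARS, the enzyme that charges transfer RNA with asparagine, averaged 283.6 TPM in sgMETTL1.3 libraries and 262.0 TPM in sgMETTL1.6 libraries, against 478.3 TPM with sgNS, and fell by 0.81 (limma, adjusted p = 2.94e-10). ASRGL1, an asparaginase, rose by 0.41 (limma, adjusted p = 9.18e-06), and NIT2, an amidase of glutamine and asparagine keto acids, rose by 0.26 (limma, adjusted p = 5.32e-05). By mRNA, the maker of asparagine and the enzyme that loads it on transfer RNA were lower, and an enzyme that breaks it down was higher. These genes were picked from a list that went both ways, and neither enzyme activity nor asparagine was measured.

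Glutamine and glutamate use gave 3 higher and 3 lower of 13 tested, with a median of -0.01, and 5 higher and 2 lower with quantile scaling. OGDH, a subunit of the 2-oxoglutarate dehydrogenase complex, and GCLM, the modifier subunit of the first enzyme of glutathione synthesis, each rose by 0.28. For GCLM the change was 0.46 with sgMETTL1.3 (limma, adjusted p = 2.29e-05) and 0.11 with sgMETTL1.6 (limma, adjusted p = 0.145). GFPT1, which takes glutamine into hexosamine synthesis, fell by 0.68 (limma, adjusted p = 5.78e-08). GLUD1, glutamate dehydrogenase, averaged 134.1 TPM in sgMETTL1.3 libraries and 129.8 TPM in sgMETTL1.6 libraries, against 153.4 TPM with sgNS, a log2 change of -0.22 (limma, adjusted p = 9.01e-05). GLUD2 is a near-identical copy, so the division of reads between GLUD1 and GLUD2 is uncertain.

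The proline and ornithine list had 3 higher and 2 lower of 10 tested and a median of 0.04. PEPD, which frees proline from dipeptides, rose by 0.42 (limma, adjusted p = 3.9e-06), and PYCRL, the cytosolic reductase, rose by 0.50 (limma, adjusted p = 7.8e-05). P4HA1, a prolyl hydroxylase subunit, fell by 0.13 (limma, adjusted p = 0.0181), and of the guides taken singly only sgMETTL1.3 gave a call. PRODH, which breaks proline down, did not exceed 0.04 TPM in any library.

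Among the other transaminases, 5 of 11 reached the test, with 1 higher, 3 lower and a median of -0.42. PSAT1 had 102.26 and 101.95 TPM with sgMETTL1.3 and 92.97 and 90.05 TPM with sgMETTL1.6, against 657.24 and 640.50 TPM with sgNS, a log2 change of -2.73 (limma, adjusted p = 2.45e-15). BCAT1, the cytosolic branched-chain aminotransferase, averaged 24.7 TPM in sgMETTL1.3 libraries and 28.4 TPM in sgMETTL1.6 libraries, against 73.8 TPM with sgNS. It fell by 1.44 (limma, adjusted p = 1.21e-11), whereas BCAT2, the mitochondrial form, rose by 0.28 (limma, adjusted p = 0.000519). KYAT3, a kynurenine aminotransferase, fell by 0.42 (limma, adjusted p = 3.84e-06).

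Enzymes of oxaloacetate, malate and pyruvate other than PCK2 and PC gave 8 higher and 1 lower of 13 tested, beside 32.6% and 26.8% of all tested genes, with a median of 0.17. MPC2, a subunit of the mitochondrial pyruvate carrier, and MDH2, the mitochondrial malate dehydrogenase, each rose by 0.22. ME1, the cytosolic malic enzyme, was the one called lower, by 0.20 (limma, adjusted p = 0.0241). It had 12.88 and 14.18 TPM with sgMETTL1.3 and 8.60 and 7.28 TPM with sgMETTL1.6, against 12.13 and 11.99 TPM with sgNS, so the low values were those of sgMETTL1.6, and the call was lost with quantile scaling.

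Carriers of the malate-aspartate shuttle and of glutamate and glutamine gave 6 higher and 3 lower of 10 tested, with a median of 0.13. Carriers in the inner mitochondrial membrane and those in the plasma membrane did not move as one. SLC25A10, the dicarboxylate carrier of mitochondria, rose by 0.78 (limma, adjusted p = 2.78e-08), and SLC1A3, a plasma membrane glutamate and aspartate transporter, rose by 0.66 (limma, adjusted p = 1.23e-08). SLC38A1 fell by 1.78 (limma, adjusted p = 2.42e-10) and SLC38A2 fell by 1.58 (limma, adjusted p = 1.63e-12), both sodium-coupled carriers that bring glutamine and other neutral amino acids into the cell. SLC38A2 had 111.75 and 108.54 TPM with sgMETTL1.3 and 125.41 and 113.86 TPM with sgMETTL1.6, against 346.07 and 342.73 TPM with sgNS.

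**Figure D5:**
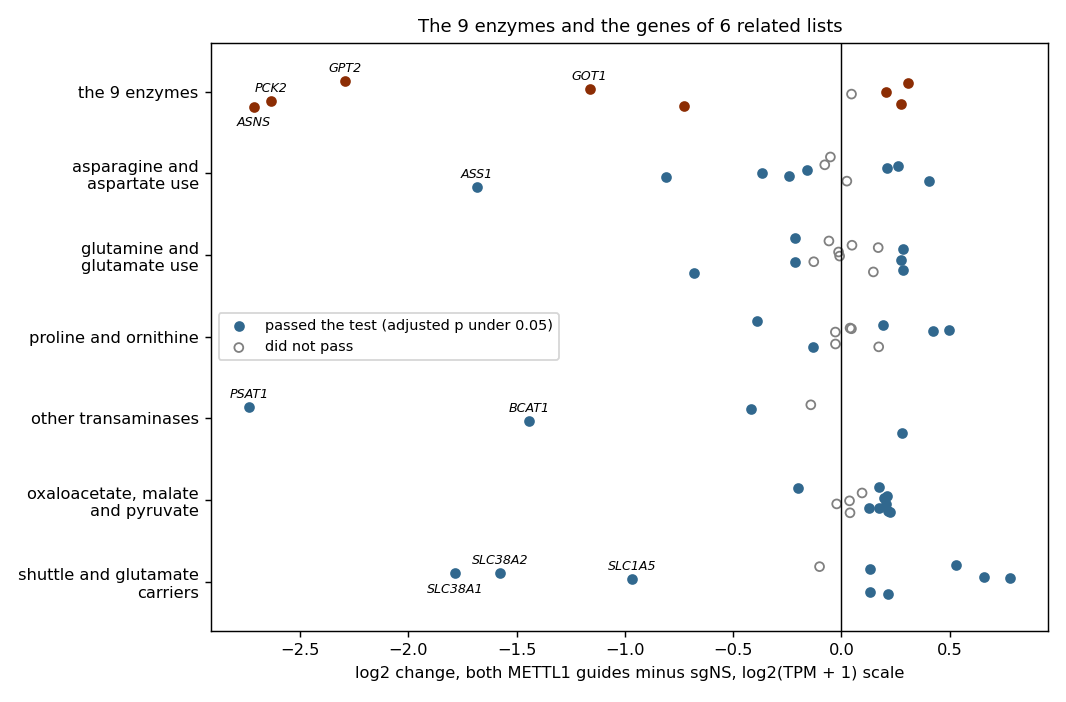
Log2 change over both METTL1 guides against sgNS (log2(TPM + 1) scale) for the 9 enzymes and for the tested genes of the 6 related lists, one point per gene and filled where the adjusted p is under 0.05. Most genes of the related lists lie between -0.5 and 0.5, and ASS1, PSAT1, BCAT1, SLC38A1 and SLC38A2 are the ones at or beyond -1.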

How the data were processed

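Poly(A) RNA of 6 libraries (3 guides, 2 libraries each) was sequenced with a stranded mRNA kit per the labels' protocols. The extraction protocol names TRIzol and the design text QIAzol. The authors deposited TPM for 18806 gene symbols in 1 table; RSEM 1.2.31 and GRCh38 are named per the submitters' processing notes, and no aligner or annotation is given in the sources used here. RSEM divides reads among similar transcripts by a model, and scaling to a fixed total lets abundant genes shift all others. All value columns matched a sample by name (0 unmapped); their names carry the letters EV, whose meaning is not given.

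The linear model (limma 3.58.1 under R 4.3.3) took log2(TPM + 1) of all 3 groups together and let the prior variance follow the level, with 9.84 prior beside 3 residual degrees of freedom. It covered the 10911 genes averaging 1 TPM or more, and Benjamini-Hochberg adjusted p-values under 0.05 over all of them were called. Ratios were tested by exact permutation; the pair GPT2 and GPT was dropped because GPT averages under 1 TPM. Positions come from GENCODE 29, promoter windows from RefSeq GRCh38.p14, both read with Python 3.11.15. The text names all 9 enzymes, METTL1, the 5 nearest profiles of ASNS and of PCK2, and in each related list up to 2 called genes with the highest and 2 with the lowest change. ATF4, PCK1, GPT, PRODH and the further genes given by value were singled out after their values were seen. The enzymes and lists were chosen with earlier results of these data known. A few listed genes and 1 pair are not reported here. Replicate numbers were not taken as pairs. Alternatives were other pseudocounts, filters and scalings, no trend, a replicate block and leaving out each library.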

Additional observations from a re-analysis of the deposited data

Results flagged for a closer look

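The guides differed from each other for 3 of the 9 enzymes in the test of that difference, all lower with sgMETTL1.6. In the same test 15.8% of all tested genes were called lower and 7.23% higher, with a median log2 difference of -0.05. Log2 differences of sgMETTL1.6 minus sgMETTL1.3 were -0.13 for ASNS (limma, adjusted p = 0.0328), -0.15 for GOT1 (limma, adjusted p = 0.0258) and -0.14 for PYCR1 (limma, adjusted p = 0.0405). ASNS averaged 78.5 ± 1.46 TPM with sgMETTL1.6 and 86.3 ± 4.55 TPM with sgMETTL1.3 (SD, n = 2). GOT1 averaged 36.5 ± 0.255 TPM with sgMETTL1.6 and 40.7 ± 0.629 TPM with sgMETTL1.3. PYCR1 averaged 151.4 ± 7.01 TPM with sgMETTL1.6 and 167.0 ± 8.34 TPM with sgMETTL1.3. METTL1 mRNA was also lower with sgMETTL1.6 (11.4 ± 0.382 TPM) than with sgMETTL1.3 (17.4 ± 1.22 TPM), and its part in these differences was not tested. Each of the 3 calls was lost when at least 1 of the 6 libraries was left out, and none held with the other scalings. With 2 libraries in a group, no search for outlying libraries was made.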

How the results depend on the processing

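Over both guides and with sgMETTL1.3, each of the 9 enzymes kept its direction and its side of the threshold in all 15 alternatives; ASNS ranged from a log2 change of -2.75 to -2.69, PYCR1 from -0.76 to -0.69, PC from 0.24 to 0.31 and GOT2 from 0.15 to 0.26. With sgMETTL1.6 the number of enzymes called higher was 1 to 3 when a library was left out, 1 without sgNS replicate 1. The enzymes called lower with sgMETTL1.6 than with sgMETTL1.3 (3) were 1 with no filter on low values, 0 with quantile scaling, 0 with median-ratio scaling, 0 without ribosomal protein genes, 0 with no trend and 1 to 2 without one library. With the replicate number as a block they were 5, GPT2 (adjusted p = 0.0388) and ALDH18A1 (adjusted p = 0.0468) being added in limma. The block changed no other call of the 9. For both guides against sgNS it raised the calls of all tested genes from 3556 to 3825 higher and from 2928 to 3151 lower. Correlations of replicate differences were 0.145 for sgMETTL1.6 and sgMETTL1.3, -0.005 for sgMETTL1.3 and sgNS, and 0.207 for sgMETTL1.6 and sgNS. These values do not settle whether the numbers pair the libraries. Over all genes, the calls higher with sgMETTL1.6 than with sgMETTL1.3 (789) were 332 with no filter, 459 with no trend and 430 to 819 without one library. Calls lower (1721) were 691 with no filter, 803 with quantile scaling, 809 with median-ratio scaling, 967 without ribosomal protein genes, 950 with no trend and 784 to 1650 without one library. The GLUL difference between the guides, -0.04, was 0.0006 with median-ratio scaling. The cause of these changes was not tested. Depth is unknown, so no limit from counting error can be given.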
